A study of Homo sapiens with 18 samples.

Results

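The genes described here are 10 that encode subunits of the transcription factor AP-1 or close relatives of them: FOS, FOSB, FOSL1 and FOSL2 of the FOS family, JUN, JUNB and JUND of the JUN family, and ATF3, MAFF and BATF3. Each was found by its symbol among the 62710 genes of the count table and matched 1 row, and the choice of genes was made with earlier results of these data known. All 10 passed the filter on low counts, as did 17030 genes in total. The RNA came from MDA-MB-231, an established human triple-negative breast cancer cell line, grown as spheroids. There were 6 groups of 3 libraries. Control spheroids, whose genotype is labelled Wildtype, and MMP14-targeted spheroids, labelled MMP14-KO, were all formed for 5 days in hanging droplets. They were then either taken as droplet samples or embedded in collagen hydrogels for a further 24 h or 48 h. MMP14 is a membrane-anchored metalloproteinase that cleaves collagen. Each sample held 100000 cells, as spheroids of 2000 cells. No label says if the MMP14-KO line is 1 clone or a pool, so loss of MMP14 and any other difference between the populations cannot be told apart. Nor do they say whether the 3 libraries of a group came from separate cultures, and p-values measure only the spread between these libraries.

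AP-1 is a dimer of proteins that share a basic DNA-binding region and a leucine zipper. FOS proteins bind DNA only with a partner, usually a JUN protein, whereas JUN proteins can also pair with each other, and ATF3, BATF3 and the small MAF protein MAFF join the network with different preferred partners and sites. FOS, FOSB, JUN, JUNB and ATF3 are classical immediate-early genes: growth factors, stress and mechanical stimuli switch them on through MAP kinases without new protein synthesis, and their mRNAs are short-lived. FOSL1 (FRA-1) and FOSL2 (FRA-2) are usually slower and longer lasting, and FOSL1 is known as the dominant FOS protein of mesenchymal, RAS- or RAF-mutant breast cancer lines, where it supports migration and invasion.

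The promoters of 4 members are shown because the genes range from the largest rise in collagen (FOSB, FOS) through an intermediate one (JUN) to no detected rise at 24 h (FOSL2). Each line is the 250 bases before the RefSeq transcription start on GRCh38.p14, read 5′ to 3′ on the gene's strand. Capitals mark TGACG, the core of the site bound by CREB, ATF and some AP-1 dimers, its reverse complement CGTCA, the JUN promoter element TGACATCA and the TATA box TATAAA.
FOS promoter, chr14:75278578-75278827, plus strand: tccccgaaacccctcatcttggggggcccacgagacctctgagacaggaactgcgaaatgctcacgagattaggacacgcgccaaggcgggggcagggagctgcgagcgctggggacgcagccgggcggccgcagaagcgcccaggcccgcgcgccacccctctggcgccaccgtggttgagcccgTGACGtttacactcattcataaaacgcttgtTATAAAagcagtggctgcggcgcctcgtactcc
FOSB promoter, chr19:45467746-45467995, plus strand: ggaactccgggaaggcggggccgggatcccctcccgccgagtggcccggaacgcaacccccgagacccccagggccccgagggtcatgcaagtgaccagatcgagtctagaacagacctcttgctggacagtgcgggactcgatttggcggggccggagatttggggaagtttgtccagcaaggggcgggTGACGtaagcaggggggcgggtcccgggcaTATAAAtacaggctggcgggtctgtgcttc
JUN promoter, chr1:58784048-58784297, minus strand: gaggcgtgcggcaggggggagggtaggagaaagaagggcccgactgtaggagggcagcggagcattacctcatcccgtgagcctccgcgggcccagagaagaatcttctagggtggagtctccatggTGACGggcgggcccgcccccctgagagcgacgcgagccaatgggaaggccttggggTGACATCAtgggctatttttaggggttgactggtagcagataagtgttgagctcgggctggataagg
FOSL2 promoter, chr2:28392608-28392857, plus strand: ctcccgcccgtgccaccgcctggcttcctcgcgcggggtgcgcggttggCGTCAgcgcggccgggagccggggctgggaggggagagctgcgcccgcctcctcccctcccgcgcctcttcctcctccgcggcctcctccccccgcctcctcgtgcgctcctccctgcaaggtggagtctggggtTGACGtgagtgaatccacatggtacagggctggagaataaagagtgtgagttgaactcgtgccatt
RefSeq entries were matched for 8 of the 10 members, 2 of them (ATF3 and MAFF) with 2 starts each. FOSL1 and BATF3 had none. On either strand TGACG was found for 7 of the 8, against 21.2% of the 35116 promoters of this length in the table, and the full palindrome TGACGTCA, which contains TGACG, for JUND and MAFF (1.65% of all promoters). In FOS it lay 64 to 60 bases before the RefSeq start, in FOSB 60 to 56, and in FOSL2 66 to 62. The distances are nearly the same only when measured from these RefSeq starts. Gene starts in GENCODE, used for the coordinates below, differ for some genes. The FOSL2 window lies wholly inside its GENCODE gene, which starts at 28392448, so by that start the motif lies downstream. The JUN window also lies wholly inside its gene, which starts at 58784327 on the minus strand. The FOS window runs past the GENCODE start at 75278774, and the FOSB window ends at the GENCODE start, 45467995. JUN held TGACATCA 67 to 60 bases before its start, and ATF3 held it 123 to 116 bases before 1 of its 2 starts (2.37% of all promoters). TATAAA was found for FOS, FOSB and JUNB, between 33 and 25 bases before the start (10.7% of all promoters, anywhere in the window). In ATF3 it lay much further out, 230 to 225 bases before the other start. Within these windows neither the canonical AP-1 site TGACTCA (4.20% of all promoters) nor the CArG box, the site of the serum response factor SRF (1.16%), was found in any of the 8. Sites more than 250 bases before a start were not searched, so a motif missing here may lie further out. These matches are descriptions of the sequence and show no binding.

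Library totals ran from 19819401 to 33352163 counts, and levels are given as CPM (the count divided by the library total, times a fixed factor) scaled by TMM, which corrects for differences in library composition. MMP14 ran from 1284 to 2250 CPM over the control libraries and from 137.9 to 165.6 CPM over the targeted ones. Of 7 mesenchymal markers, 6 were at 102.9 CPM or more in every library and SPARC ran from 0.571 to 7.96 CPM. Of 8 luminal markers, the hormone receptors ESR1 and PGR, FOXA1 and CDH1 were at 0.781 CPM or less, GATA3, EPCAM and TFF1 lay between 0.691 and 13.8 CPM, and KRT19 was at 261.9 to 495.7 CPM. Mitochondrially encoded transcripts took up 2.10 to 2.65% of the control and 0.971 to 1.74% of the targeted droplet libraries, and between 2.34 and 4.18% in the collagen groups. Spheroids in collagen were recovered with collagenase at 37 °C (2 mg/ml), whereas droplet spheroids were only washed off. Matrix, medium, time and digestion therefore cannot be told apart in any comparison of collagen with droplets, while the 24 h and 48 h samples were both digested. In bulk RNA, a change in the number of cells that express a gene and a change in the RNA per cell cannot be told apart.

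In droplets the 10 genes split into 6 that were well expressed and 4 at low levels. Levels between genes are compared per kilobase (kb) of exon, from the union of exons in GENCODE 29. In control droplets JUNB at 51.4 ± 1.40 and FOSL1 at 49.97 ± 4.19 CPM per kb had the highest means (SD, n = 3). Their libraries overlapped, at 49.7 to 52.3 for JUNB and 46.5 to 54.6 for FOSL1. Such an order also depends on the length assumed. Next by mean came JUND at 42.6 ± 4.94, JUN at 37.8 ± 1.21, FOSL2 at 28.2 ± 0.948 and MAFF at 14.4 ± 0.761. ATF3 at 2.68 ± 0.344, BATF3 at 2.34 ± 0.172 and FOS at 2.20 ± 0.339 formed a lower group, and FOSB was lowest at 0.264 ± 0.0469 CPM per kb. After 24 h in collagen FOS led at 316.3 ± 32.4 CPM per kb, ahead of JUNB at 183.6 ± 31.9 and FOSL1 at 165.2 ± 18.2. BATF3 was now the lowest at 4.33 ± 0.467 CPM per kb.

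**Figure D1:**
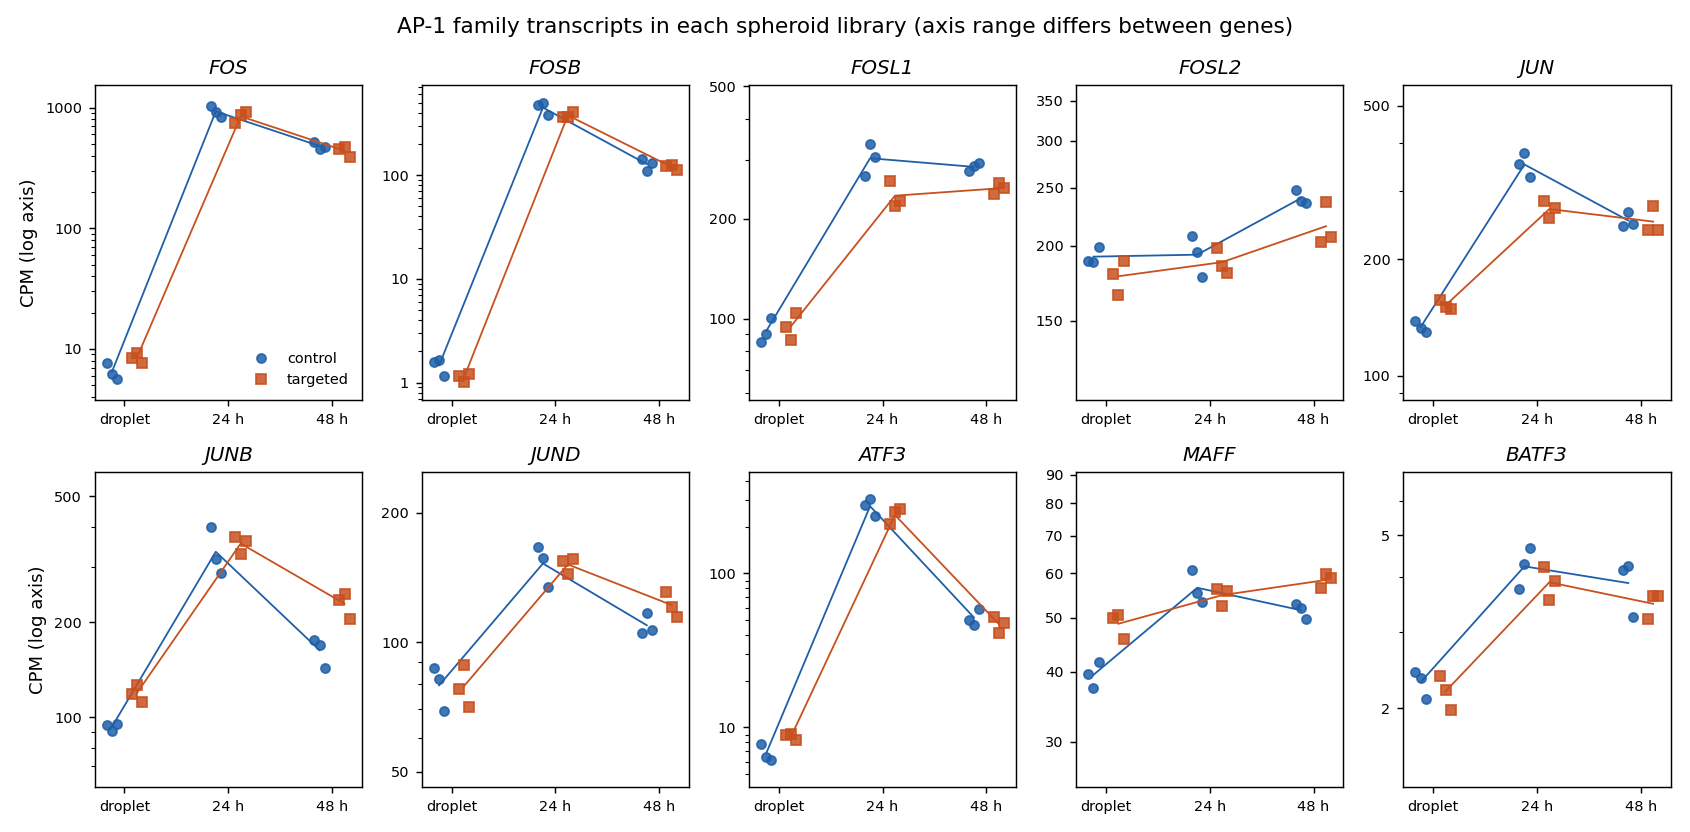
Level of each of the 10 genes in every library, as CPM on a log axis whose range differs between panels. Circles are control and squares MMP14-targeted libraries, the x axis gives the droplet, 24 h and 48 h groups of 3 libraries, and lines join group means. FOS, FOSB and ATF3 climb from below 10 CPM in droplets to over 200 CPM at 24 h, FOSL2 stays between 165.7 and 247.9 CPM throughout, and JUN at 24 h is lower in all 3 targeted libraries.

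In control spheroids 9 of the 10 genes were higher after 24 h in collagen than in droplets and 0 were lower, where 27.8% of all tested genes were higher and 28.7% lower (56.5% in all; edgeR, with calls at an adjusted p under 0.05 over 17030 genes). At 48 h all 10 were higher (27.7% of all genes higher, 27.5% lower, 55.2% in all). The median log2 fold change of the 10 was 1.56 at 24 h and 0.86 at 48 h, and that of all tested genes was 0.00 at both times. Targeted spheroids gave the same counts, 9 of 10 at 24 h (25.5% of all genes higher, 25.7% lower, 51.1% in all) and 10 of 10 at 48 h (25.8% higher, 23.6% lower, 49.4% in all), with medians of 1.12 and 0.83. The 24 h and 48 h comparisons of a genotype share its droplet libraries. Summed levels of 7 leukocyte markers moved the other way, from 34.4 to 47.4 CPM in droplets to between 12 and 23.7 CPM in collagen. Over all libraries CD14 ran from 7.34 to 29.5 CPM, LYZ from 2.21 to 14.1 CPM and CSF1R from 1.37 to 4.19 CPM. CD3E was at 0 everywhere, and PTPRC, CD79A and ITGAM were at 1.17 CPM or less. Summed endothelium markers (6 genes) ran from 33.5 to 41.7 CPM in droplets and from 16.7 to 35.7 CPM in collagen. PECAM1 ran from 8.10 to 34.1 CPM and KDR from 4.07 to 8.90 CPM, with CDH5, VWF, CLDN5 and ERG at 0.329 CPM or less. Summed mesenchymal markers (7 genes) were higher in collagen, at 6607 to 7376 CPM against 4311 to 5200 CPM. Luminal sums (8 genes) ran from 293.4 to 447.8 CPM in droplets and from 404.2 to 514.1 CPM in collagen. They were mostly KRT19, at 261.9 to 495.7 CPM over all libraries. Of the 6 luminal genes tested, 1 was higher and 3 lower in control spheroids at 24 h and at 48 h. In targeted spheroids 1 was higher and 2 lower at each time. The part of these markers in the AP-1 results was not tested.

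FOS (ENSG00000170345; chromosome 14, 75278774 to 75282230, plus strand, GRCh38) encodes the founding FOS protein. Control droplets held 7.57, 6.17 and 5.64 CPM, control spheroids at 24 h held 1026, 926.1 and 835.6 CPM, and at 48 h they held 520.6, 450.6 and 469.5 CPM. In targeted spheroids the values were 8.36, 9.31 and 7.65 CPM in droplets, 749.8, 860.2 and 926.6 CPM at 24 h, and 457.3, 472.8 and 386.3 CPM at 48 h. The 3 conditions did not overlap in either genotype, and the genotypes overlapped at 24 h and at 48 h. The log2 fold change from droplet to 24 h was 7.18 (SE 0.138, adjusted p = 2.03e-16, edgeR) in control and 6.65 (SE 0.133, adjusted p = 1.01e-15) in targeted spheroids.

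FOSB (ENSG00000125740; chromosome 19, 45467995 to 45475179, plus strand), whose shorter splice form is known to accumulate under chronic stimulation, had the largest fold change of the 10. It was at 1.59, 1.64 and 1.17 CPM in control droplets (31 to 46 counts per library), at 472.4, 493.9 and 378.2 CPM at 24 h, and at 143.1, 110.0 and 129.9 CPM at 48 h. Targeted libraries held 1.15, 1.02 and 1.20 CPM in droplets, 362.6, 360.3 and 409.2 CPM at 24 h, and 123.5, 124.3 and 111.5 CPM at 48 h. Every collagen library stood above every droplet library, and every 24 h library above every 48 h library. The log2 fold changes to 24 h were 8.26 (95% interval 7.92 to 8.59) in control and 8.39 (8.05 to 8.73) in targeted spheroids. FOSB overlaps ERCC1 on the opposite strand without shared exon bases, and since it is not known here whether reads were counted by strand, its counts are uncertain to a small extent.

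ATF3 (ENSG00000162772; chromosome 1, 212565334 to 212620777, plus strand), a stress-induced protein that can repress transcription as a homodimer, showed the sharpest peak. Control libraries held 7.81, 6.46 and 6.17 CPM in droplets, 279.6, 305.5 and 235.4 CPM at 24 h, and 49.8, 46.5 and 59.1 CPM at 48 h. The corresponding targeted values were 8.92, 9.10 and 8.30 CPM, then 208.9, 249.2 and 261.0 CPM, then 52.0, 41.0 and 47.9 CPM. Groups did not overlap between conditions, and the genotypes overlapped in collagen. Its log2 fold change to 24 h was 5.34 (95% interval 5.02 to 5.65) in control and 4.77 (4.47 to 5.07) in targeted spheroids.

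The other FOS proteins moved less. FOSL1 (ENSG00000175592; chromosome 11, 65892049 to 65900573, minus strand) was at 85.5, 89.9 and 100.5 CPM in control droplets, 269.7, 336.6 and 305.7 CPM at 24 h, and 277.8, 287.6 and 293.8 CPM at 48 h. It thus rose 3.30-fold by 24 h (log2 1.72, SE 0.0836, adjusted p = 2.09e-12, edgeR) and the 2 collagen times overlapped. FOSL2 (ENSG00000075426; chromosome 2, 28392448 to 28417312, plus strand) was at 188.6, 187.8 and 199.3 CPM in control droplets and 207.4, 195.1 and 177.5 CPM at 24 h, which overlap. The log2 difference was 0.01 with a 95% interval of -0.12 to 0.15 (adjusted p = 0.906). At 48 h FOSL2 reached 247.9, 237.3 and 236.0 CPM, above all 24 h and droplet libraries (log2 0.32 against droplets, SE 0.0649, adjusted p = 0.000193, edgeR). In targeted spheroids FOSL2 likewise passed the test at 48 h (log2 0.28, adjusted p = 0.00119) and not at 24 h (log2 0.08, 95% interval -0.06 to 0.21).

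Among the JUN genes, which are single-exon genes, JUNB rose most and JUND least at 24 h in control spheroids. JUN (ENSG00000177606; chromosome 1, 58780788 to 58784327, minus strand), the partner of FOS in the classical dimer, was at 138.2, 132.9 and 129.8 CPM in control droplets, 353.2, 377.3 and 326.4 CPM at 24 h, and 244.8, 264.7 and 247.2 CPM at 48 h. JUNB (ENSG00000171223; chromosome 19, 12791496 to 12793315, plus strand), which activates transcription more weakly than JUN and can oppose it, was at 94.7, 90.5 and 95.2 CPM in control droplets, then 399.0, 316.8 and 286.8 CPM, then 175.8, 169.9 and 143.7 CPM. JUND (ENSG00000130522; chromosome 19, 18279760 to 18281622, minus strand), the constitutive member of the family, was at 86.9, 82.2 and 69.2 CPM, then 166.3, 156.8 and 134.5 CPM, then 105.1, 116.9 and 106.7 CPM. For each of the 3 genes the 24 h libraries were the highest and the droplet libraries the lowest, with no overlap. The log2 fold changes at 24 h were 1.84 for JUNB, 1.40 for JUN and 0.94 for JUND in control spheroids, and 1.57, 0.83 and 0.94 in targeted spheroids, all called by edgeR. JUNB shares 259 exon bases with HOOK2 on the opposite strand. HOOK2 itself had 421 to 847 counts per library, and with the strand setting unknown the JUNB values are uncertain to that extent.

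MAFF and BATF3 had the smallest rises beside FOSL2 at 24 h in control spheroids. MAFF (ENSG00000185022; chromosome 22, 38200767 to 38216511, plus strand), a small MAF protein without a transactivation domain, was at 39.6, 37.4 and 41.6 CPM in control droplets, 60.8, 55.4 and 53.4 CPM at 24 h, and 52.9, 52.1 and 49.6 CPM at 48 h. The rise to 24 h was 0.52 on the log2 scale (SE 0.0608, adjusted p = 2.16e-07, edgeR) in control and 0.17 (SE 0.0602, adjusted p = 0.0223) in targeted spheroids. The targeted call was lost without targeted 24 h replicate 1 (adjusted p = 0.0872) or 3 (0.0823), without targeted droplet replicate 3 (0.145), and with no filter on low counts (0.0507). BATF3 (ENSG00000123685; chromosome 1, 212686418 to 212699985, minus strand), a partner of JUN proteins best known from dendritic cells, stayed low at 2.43, 2.35 and 2.11 CPM in control droplets, 3.76, 4.30 and 4.67 CPM at 24 h, and 4.15, 4.26 and 3.24 CPM at 48 h. Its droplet libraries lay below all collagen libraries (52 to 66 counts in control droplets), and the log2 fold change to 24 h was 0.89 (SE 0.154, adjusted p = 3.75e-05).

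**Figure D2:**
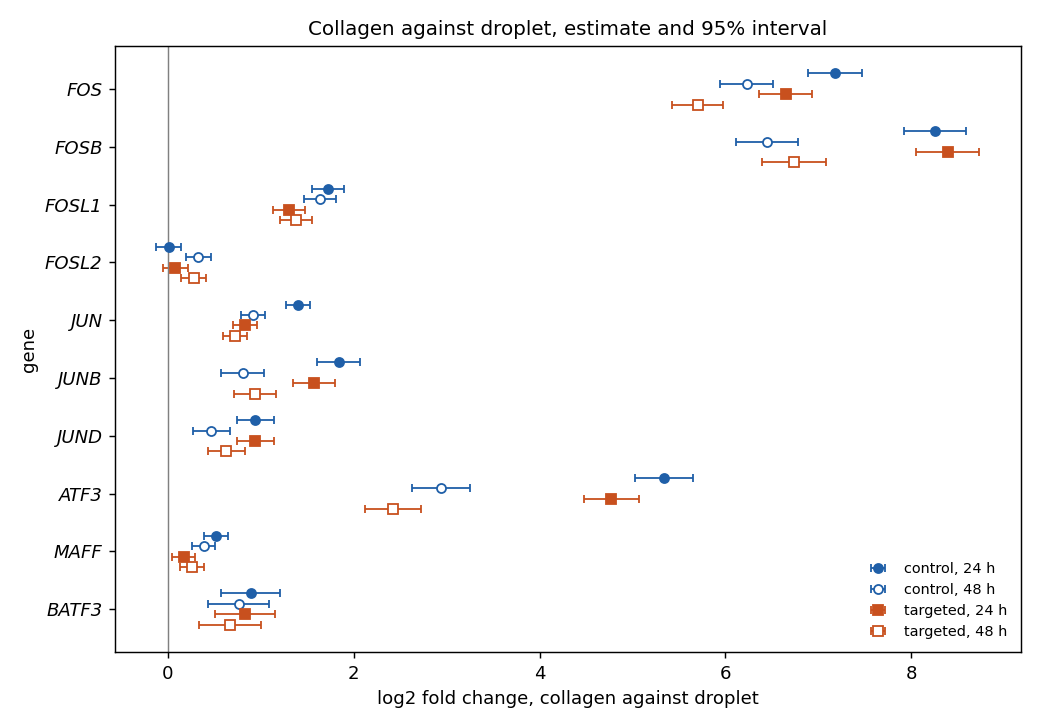
Log2 fold change of each gene in collagen against droplets (x axis) with its 95% interval, for control (circles) and targeted (squares) spheroids at 24 h (filled) and 48 h (open). Fold changes run from 0.01 for FOSL2 to 8.26 for FOSB in control spheroids at 24 h, and only the 24 h intervals of FOSL2 include 0.

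Between 24 h and 48 h the genes separated by how far they came down. In control spheroids 6 of the 10 fell and 1 rose, where 6.88% of all tested genes fell and 6.32% rose (13.2% in all, edgeR). As a share of the 24 h mean, ATF3 stood at 18.9% at 48 h, FOSB at 28.5%, JUNB at 48.8%, FOS at 51.7%, JUN at 71.6% and JUND at 71.8%. All 6 falls passed, with log2 fold changes from -2.40 (SE 0.119, adjusted p = 1.48e-08) for ATF3 to -0.48 for JUN (adjusted p = 1.47e-05) and JUND (adjusted p = 0.00237). FOSL1 kept 94.2% of its 24 h level (log2 -0.09, 95% interval -0.25 to 0.08), and MAFF 91.2% and BATF3 91.5% did not pass either. FOSL2 went the other way, with a rise of 0.31 (SE 0.0648, adjusted p = 0.00228, edgeR). FOSL1 and FOSL2 were thus the 2 FOS genes without a called fall.

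In targeted spheroids 4 of the 10 fell from 24 h to 48 h and 0 rose (1.73% of all genes fell and 2.07% rose, 3.81% in all). ATF3 was at 19.6% of its 24 h level, FOSB at 31.7%, FOS at 51.9% and JUNB at 64.5%. JUND was at 80.4% (log2 -0.31, SE 0.0930, adjusted p = 0.0727, edgeR) with its 48 h libraries below all 24 h libraries. This fall was called by DESeq2 (adjusted p = 0.0132) and by edgeR with no filter (2.06e-05), with the groups alone (0.0127) and with a replicate block (0.0142). JUN was at 92.8% (log2 -0.11, 95% interval -0.24 to 0.02). FOSL2, which rose in control spheroids, was higher in all 48 h than in all 24 h targeted libraries without passing. Its log2 fold change was 0.20 (95% interval 0.06 to 0.33, adjusted p = 0.0933, edgeR). MAFF was also higher in all 48 h libraries (log2 0.09, 95% interval -0.04 to 0.21) and did not pass. The difference between genotypes in the step from 24 h to 48 h passed for 0 of the 10 genes and for 0% of all genes by edgeR. At an unadjusted p under 0.05 it did for 3 of the 10, JUN, JUNB and MAFF, and for 1107 of all genes, and DESeq2 called 0 of the 10.

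Summed per length, FOS-family mRNA rose from 80.7 ± 4.76 CPM per kb in control droplets to 590.7 ± 39.8 at 24 h and 377.5 ± 13 at 48 h (SD, n = 3), and its composition turned over. In control droplets FOSL1 made up 61.9 ± 1.59% of the family and FOSL2 35.0 ± 0.966%, with FOS at 2.75 ± 0.56% and FOSB at 0.33 ± 0.0744%. At 24 h FOS made up 53.5 ± 3.17%, FOSL1 28.1 ± 3.56%, FOSB 13.6 ± 1.00% and FOSL2 4.82 ± 0.166%. By 48 h FOS at 43.3 ± 1.84% and FOSL1 at 41.3 ± 2.28% overlapped between libraries. The family sum at 24 h ran from 544.8 to 615.8 CPM per kb in control and from 490.5 to 538.4 in targeted libraries. These ranges did not overlap with the exon-union lengths, and the gap rests on that choice of length. Targeted spheroids showed a like turnover, with FOSL1 at 63.8 ± 1.03% in droplets and FOS at 56.2 ± 3.65% at 24 h. Both the sums and the shares depend on the length assumed. With the longest transcript of each gene, an alternative chosen after seeing the data, FOS at 48 h came to 47.9% and FOSL1 to 37.1% in control spheroids.

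JUN-family mRNA rose less, from 131.7 ± 5.84 to 365.0 ± 43.1 and 219.7 ± 12.6 CPM per kb in control spheroids. JUNB made up 39.0 ± 2.11% in droplets, 50.1 ± 3.16% at 24 h and 40.7 ± 2.60% at 48 h. JUN made up 28.7 ± 0.374%, 27.4 ± 2.60% and 32.5 ± 1.38%, and its control 48 h shares lay above all control droplet and 24 h shares. In targeted spheroids at 24 h JUN held 21.6 ± 0.288% and JUNB 55.3 ± 0.504%. At 24 h the targeted JUN shares ran from 21.3 to 21.8% and the control ones from 24.4 to 29.2%, without overlap. At 48 h they ran from 25.2 to 27.9% and from 31.1 to 33.9%, again without overlap. In droplets the shares overlapped, at 26.6 to 29.7% in targeted and 28.4 to 29.1% in control libraries. All JUN-family shares rest on the uncertain JUNB counts.

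**Figure D3:**
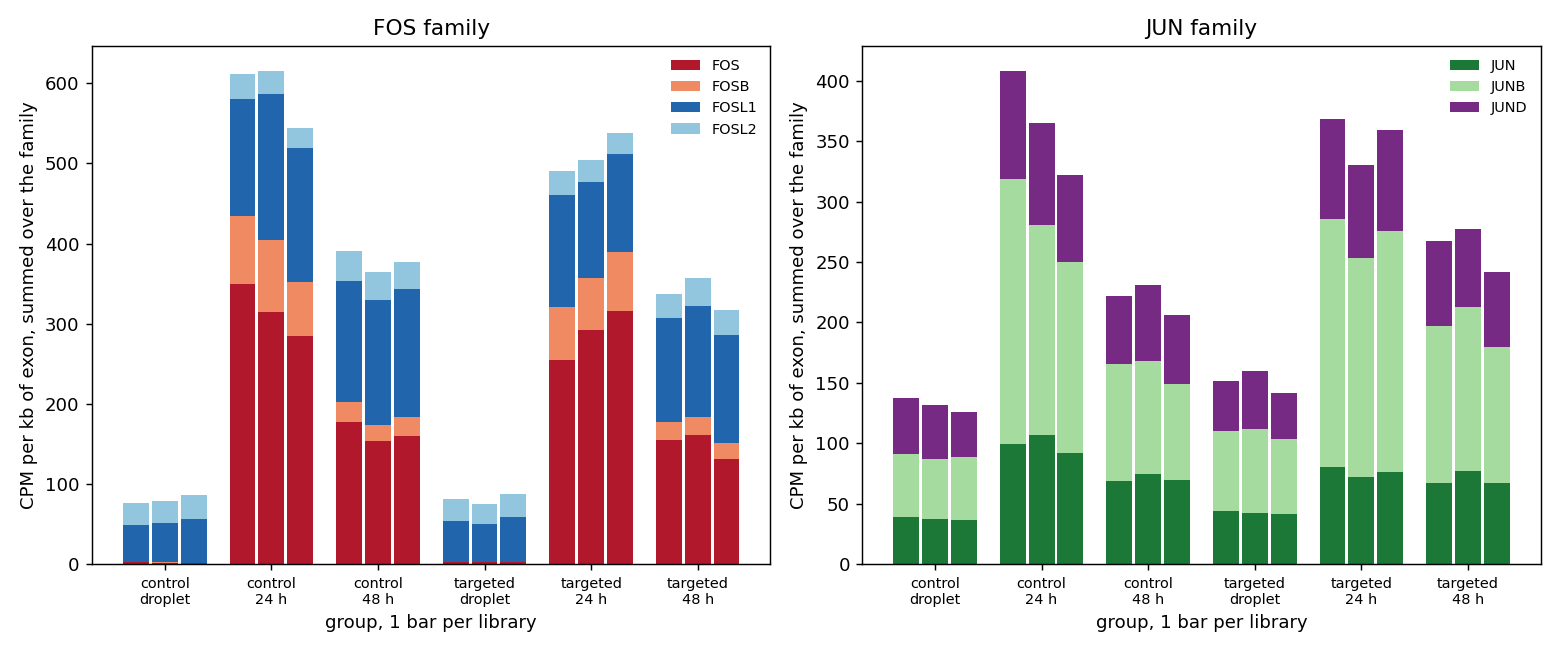
CPM per kb of exon summed over the FOS family (left) and the JUN family (right), with 1 stacked bar per library and colours for the genes. In both genotypes the FOS-family bars change from mostly FOSL1 and FOSL2 in droplets to mostly FOS at 24 h, and the 24 h bars are the tallest in both families.

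Targeted and control spheroids were then compared within each condition. In droplets 3 of the 10 were higher in targeted spheroids and 0 lower, where 7.7% of all genes were higher and 9.7% lower (17.4% in all). Targeted droplets held 157.4, 150.3 and 148.8 CPM of JUN against 138.2, 132.9 and 129.8 CPM in control (log2 0.19, SE 0.0622, adjusted p = 0.0400, edgeR). For JUNB the targeted values were 119.0, 127.1 and 112.2 CPM (log2 0.35, SE 0.109, adjusted p = 0.0337), and for MAFF they were 49.9, 50.5 and 45.8 CPM (log2 0.30, SE 0.0610, adjusted p = 0.00112). Each of the 3 genes was higher in all 3 targeted libraries than in any control library. FOS and ATF3 were also higher in 3 of 3 targeted libraries without passing (log2 0.40, adjusted p = 0.0817 and log2 0.37, adjusted p = 0.155, edgeR), and DESeq2 called both. The MAFF call held without any single library. Those of JUN and JUNB were each lost in 5 of 6 such fits (adjusted p up to 0.123 for JUN and 0.107 for JUNB): JUN without control replicate 2 or 3 or any targeted replicate, JUNB without any control replicate or targeted replicate 1 or 2. Without control droplet replicate 2 or 3, or targeted droplet replicate 1 or 2, the count fell from 3 to 1. In these targeted droplet libraries the mitochondrial share was lower than in all control droplets, and summed leukocyte markers (40.5 to 47.4 against 34.4 to 37.7 CPM) and endothelium markers (41.5 to 41.7 against 33.5 to 36.5 CPM) were higher. Summed luminal markers (293.4 to 360.0 against 376.9 to 447.8 CPM) and fibroblast markers (33.8 to 40.2 against 47.2 to 59.4 CPM) were lower. The luminal sum was mostly KRT19, and of 6 luminal genes tested 1 was higher and 1 lower. The part of these values was not tested.

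At 24 h the direction for JUN was the opposite. Targeted spheroids held 283.7, 255.5 and 271.2 CPM of JUN against 353.2, 377.3 and 326.4 CPM in control (log2 -0.38, SE 0.0611, adjusted p = 8.13e-05, edgeR), which is 76.7% of the control level. FOSL1 was at 258.9, 218.8 and 226.0 CPM in targeted and 269.7, 336.6 and 305.7 CPM in control spheroids (log2 -0.37, SE 0.0805, adjusted p = 0.00166), or 77.1%. Neither gene overlapped between genotypes. These were 2 of the 10 lower and 0 higher, where 15.7% of all genes were lower and 13.7% higher (29.4% in all), so the share is near that of all genes. FOSB was at 84.2% of control and did not pass (adjusted p = 0.0616, edgeR), but did with no filter (0.000774), without control 24 h replicate 3 (0.00549) and without targeted 24 h replicate 3 (0.0419). For the other genes the intervals included 0, and for FOS the interval of the log2 difference ran from -0.34 to 0.07, for JUNB from -0.14 to 0.31 and for JUND from -0.20 to 0.19.

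By 48 h JUN no longer separated the genotypes and JUNB did. Targeted spheroids held 238.7, 274.5 and 238.9 CPM of JUN and control 244.8, 264.7 and 247.2 CPM (log2 -0.01, 95% interval -0.14 to 0.12). JUNB was at 235.6, 246.2 and 205.0 CPM in targeted and 175.8, 169.9 and 143.7 CPM in control spheroids (log2 0.49, SE 0.107, adjusted p = 0.00288, edgeR), and this call held without any single library. MAFF was at 56.4, 59.9 and 58.8 CPM against 52.9, 52.1 and 49.6 CPM (log2 0.18, SE 0.0604, adjusted p = 0.0294). The MAFF call was lost without control 48 h replicate 2 (0.0577) or 3 (0.134), without targeted 48 h replicate 2 (0.109) or 3 (0.0827), with no filter (0.104) and in a fit of these 6 libraries alone (0.0508). Without control 48 h replicate 2 or 3 or targeted 48 h replicate 3 the count was 1. In all 2 of the 10 were higher and 0 lower (14.4% of all genes higher, 15.1% lower, 29.5% in all). FOSL1, at 237.7, 255.3 and 247.6 CPM in targeted spheroids, was again below all control libraries (log2 -0.21, adjusted p = 0.0513, edgeR). It was called as lower by DESeq2 (0.0378) and by edgeR with DESeq2's size factors (0.0464), with no filter (0.00229) and with these groups alone (0.0266), so the count of 0 lower depends on the setting.

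**Figure D4:**
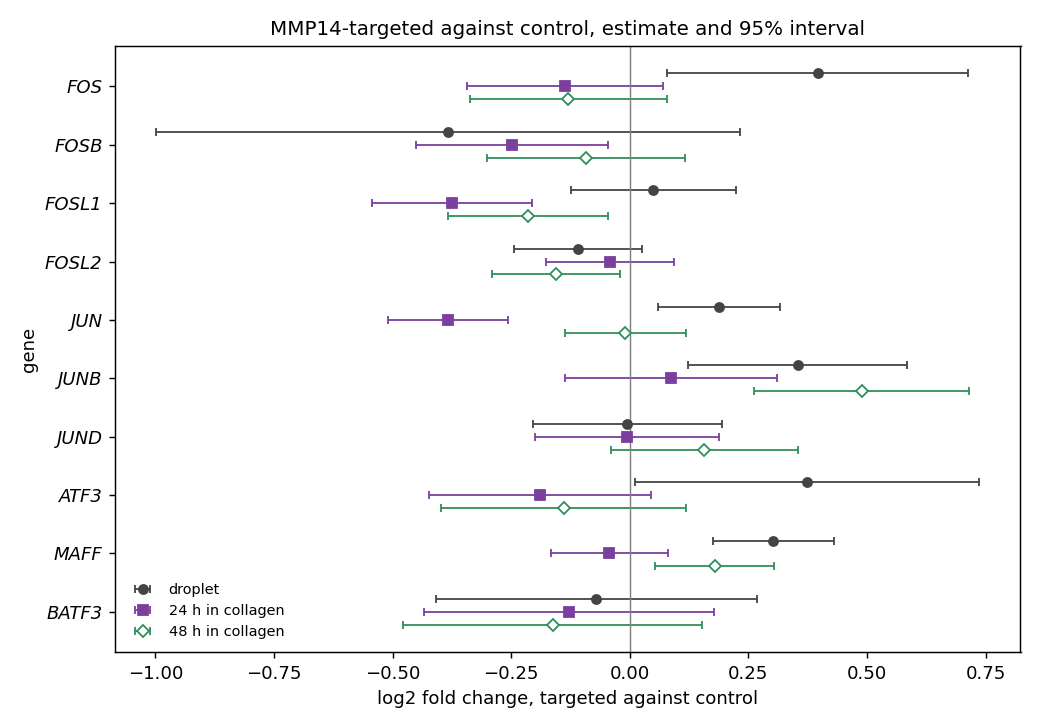
Log2 fold change of each gene in targeted against control spheroids (x axis) with its 95% interval, in droplets (circles), at 24 h (squares) and at 48 h (diamonds). JUN lies at 0.19 in droplets, -0.38 at 24 h and -0.01 at 48 h, while JUNB lies above 0 in droplets (0.35) and at 48 h (0.49).

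The size of the collagen response was compared between genotypes by an interaction term. At 24 h the rise was smaller in targeted spheroids for 3 of the 10 and larger for 0, where 4.09% of all genes had a more negative and 3.32% a more positive response (7.41% in all). For JUN the difference of log2 fold changes was -0.57 (SE 0.0871, adjusted p = 0.00127, edgeR), since a 2.64-fold rise in control stood against a 1.78-fold rise in targeted spheroids, and this call held without any single library. MAFF differed by -0.35 (SE 0.0855, adjusted p = 0.0186), a call lost without control droplet replicate 2 (0.0573) or targeted 24 h replicate 2 (0.0508). FOSL1 differed by -0.42 (SE 0.116, adjusted p = 0.0313). That call was lost in 8 of 12 fits without 1 library, namely control 24 h replicates 2 and 3, control droplet replicates 1 and 2, targeted 24 h replicates 2 and 3 and targeted droplet replicates 1 and 3, with adjusted p up to 0.0959, and in a fit of the 4 groups alone (0.0861). Without control droplet replicate 2 or targeted 24 h replicate 2 the count fell from 3 to 1. FOS (-0.53, 95% interval -0.91 to -0.15, adjusted p = 0.0785) and ATF3 (-0.56, -0.996 to -0.132, adjusted p = 0.103) did not pass by edgeR. Both were called by DESeq2 (0.0141 for FOS, 0.0176 for ATF3) and with no filter (6.1e-05 and 4.07e-05).

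For the 48 h response 0 of the 10 passed by edgeR, where 2.78% of all genes had a more negative and 4% a more positive response (6.79% in all). At an unadjusted p under 0.05 there were 4 (FOS, ATF3, FOSL1 and JUN), beside 4116 of all 17030 genes. DESeq2 called 2, FOS and ATF3, both more negative. Of the 13311 genes it tested, it called 925 as more negative and 833 as more positive. The difference for FOS was -0.53 (95% interval -0.91 to -0.15, adjusted p = 0.0833), and for JUN it was -0.20 (-0.38 to -0.02, adjusted p = 0.169).

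Genes around AP-1, in 4 lists, were read beside the members. Of 30 other immediate-early genes, 23 were higher and 1 lower at 24 h in control spheroids (median log2 1.13, against 27.8% of all genes higher and 28.7% lower), and 22 fell and 2 rose from 24 h to 48 h (6.88% and 6.32% of all genes). NR4A1, an orphan nuclear receptor gene, went from 3.48 ± 1.25 to 85.2 ± 23.4 and 26.8 ± 4.23 CPM, DUSP1, a MAP kinase phosphatase gene, from 22.2 ± 2.59 to 468.3 ± 64.7 and 230.2 ± 6.49 CPM, and EGR1, a zinc finger factor, from 24.7 ± 1.44 to 439.2 ± 32.2 and 144.5 ± 7.35 CPM (SD, n = 3). ZFP36, whose product binds AU-rich mRNAs and speeds their decay, went from 15.9 ± 0.868 to 192.0 ± 35.2 and 73.0 ± 9.14 CPM. In targeted spheroids 20 of the 30 rose and 2 fell at 24 h (25.5% and 25.7% of all genes), and 19 fell and 1 rose from 24 h to 48 h (1.73% and 2.07%). In targeted against control spheroids 8 were higher and 0 lower in droplets (7.7% and 9.7% of all genes), 7 and 2 at 24 h (13.7% and 15.7%), and 10 and 1 at 48 h (14.4% and 15.1%). TRIB1, a pseudokinase gene, was higher in all 3 conditions, by 0.47, 0.51 and 0.53 (edgeR adjusted p = 0.00014, 3.93e-05 and 4.37e-05).

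Fewer dimer partners outside the 10 rose than fell. Of 27 tested genes of other basic leucine zipper proteins (29 in the list), 5 rose and 10 fell at 24 h in control spheroids, with a median of -0.20 (27.8% of all genes rose and 28.7% fell). JDP2, a repressor that pairs with JUN, rose from 1.46 ± 0.540 to 4.23 ± 0.606 CPM (log2 1.55, SE 0.212, adjusted p = 1.79e-06, edgeR). NFE2, the hematopoietic partner of small MAF proteins, fell from 1.69 ± 0.412 to 0.397 ± 0.217 CPM (log2 -2.08, SE 0.323), and BATF (-1.58) fell as well. ATF7, a relative of ATF2 that pairs with JUN, fell in control spheroids from 50.6 ± 2.52 to 33.2 ± 2.21 CPM and in targeted spheroids was at 47.3 ± 1.60 and 43.7 ± 2.697 CPM. The ATF7 response differed between genotypes at 24 h (0.49, SE 0.104, adjusted p = 0.00913) and at 48 h (0.39, SE 0.105, adjusted p = 0.0309, edgeR).

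Of 30 genes for MAP kinases, their activators and targets and the SRF partners, 12 rose and 10 fell at 24 h in control spheroids, with a median of 0.02 (27.8% of all genes rose and 28.7% fell). The 4 largest called changes were falls, in the kinase genes MAPK10 (-2.003), RPS6KA2 (-1.02) and MAPK11 (-0.86) and in MEF2C (-0.93), a MADS-box factor gene that fell from 58.2 ± 5.10 to 30.5 ± 2.12 CPM. SRF, which drives FOS and other immediate-early promoters, had 24 h means of 150.5 ± 5.74 CPM (control) and 116.1 ± 5.73 CPM (targeted) (log2 -0.37, SE 0.0571, adjusted p = 4.81e-05, edgeR) and at 150.2 ± 5.81 and 120.0 ± 8.85 CPM at 48 h (-0.32, adjusted p = 0.00024). Of the 30, 2 were higher and 6 lower in targeted than in control droplets (7.7% and 9.7% of all genes). At 24 h 5 were higher and 10 lower (13.7% and 15.7%), and at 48 h 3 and 8 (14.4% and 15.1%). MAPK14, the p38-alpha kinase, was lower in targeted spheroids at 24 h (-0.40) and 48 h (-0.45, SE 0.0429, adjusted p = 1.45e-07). Among the higher genes were MAP2K6 (0.95, adjusted p = 0.000342, edgeR) and MEF2A (0.37) at 24 h, and RPS6KA2 (0.40) and MAPK7 (0.34) at 48 h. MAP2K1, the ERK-activating kinase MEK1, rose at 24 h in control spheroids (0.34, SE 0.0430, adjusted p = 5.94e-07). Its 24 h response was lower in targeted ones (-0.29, SE 0.0607, adjusted p = 0.00887). These are transcript levels and do not measure kinase activity.

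Of 29 tested genes known as AP-1 targets (30 in the list), 12 rose and 3 fell at 24 h in control spheroids (27.8% and 28.7% of all genes). At 48 h 9 were higher and 10 lower than in droplets (27.7% and 27.5%), and between the times 13 fell and 0 rose (6.88% and 6.32%). EDN1, the vasoconstrictor endothelin, rose from 4.20 ± 0.798 to 84.9 ± 4.84 CPM and stood at 48.7 ± 4.97 CPM at 48 h. PLAU, the urokinase gene, went from 232.2 ± 12.8 to 413.4 ± 31.7 and 445.9 ± 10.4 CPM (SD, n = 3). Not every target rose: the collagenase gene MMP13 fell from 4.38 ± 0.321 to 1.29 ± 0.0900 and 0.631 ± 0.122 CPM. Between genotypes the direction differed by condition. In droplets 9 of the 29 were higher and 2 lower in targeted than in control spheroids (7.7% and 9.7% of all genes). At 48 h 8 were higher and 6 lower (14.4% and 15.1%). In targeted spheroids at 24 h 10 of the 29 were lower and 3 higher than in control (15.7% and 13.7% of all genes), with EDN1 at -0.98 (SE 0.122, adjusted p = 2.36e-05, edgeR). The 3 higher genes were MMP9, MMP10 and the EGF-receptor ligand EREG, at 2.16, 1.68 and 1.06, and they were also higher in droplets and at 48 h. The 24 h response was more negative in targeted spheroids for 4 of the 29 and more positive for 1 (median -0.28; 4.09% and 3.32% of all genes). PLAU (-0.47, adjusted p = 0.00545), its receptor PLAUR (-0.45, adjusted p = 0.0142), IL11, a cytokine gene (-0.76, adjusted p = 0.0308), and HBEGF, a growth factor gene (-0.44, adjusted p = 0.0017), were those 4. The 48 h response was more negative for 2 of the 29 and more positive for 3 (2.78% and 4% of all genes).

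The genes outside the 10 whose 6 group means ran most like a member's were found by the root-mean-square distance of centred log2 CPM over the 6 groups, among 11265 genes of at least 5 CPM. ATF3 was nearest to NR4A1 (distance 0.31), EGR1 (0.48) and DUSP1 (0.57), and JUNB to BRME1 (0.05) and KLF6 (0.14). KRTAP2-3 was nearest to both FOS and FOSB, at 0.72 and 1.24. FOSL1 was nearest to PTPRF (0.08), a receptor phosphatase gene, PROSER2 (0.08) and GPR3 (0.09), and JUN to DCTPP1 (0.05), RAD18 (0.07) and POLD1 (0.07), 3 genes of nucleotide metabolism and DNA repair or replication. Among the members themselves the closest pair was JUND and BATF3 (0.14), followed by JUN and BATF3 (0.16) and JUN and JUND (0.17), and FOS and FOSB lay 0.59 apart. These distances rest on 6 group means from the same libraries. They are not scaled by the size of a gene's change, so genes with large changes tend to lie further from any other. Distances of FOS, FOSB and ATF3 therefore cannot be set against those of genes that moved little.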

How the data were processed

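RNA from MDA-MB-231 spheroids was sequenced as polyA libraries with 151 bp read pairs, per the labels' protocols. The authors deposited 1 table of expected counts by gene, made with tools that include cutadapt 2.3, STAR 2.7.8a and RSEM 1.3.3 on GRCh38, per the submitters' processing notes. Every deposited value was already a whole number, so no rounding was needed. Neither the annotation release nor the strand setting is named in any label or header. The 4 rows that name no gene held 0 counts and were left out.

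Tests were run with edgeR 4.0.16 under R 4.3.3 (filterByExpr with a minimum count of 10, TMM, robust quasi-likelihood F test, 1 fit of 18 libraries with 1 coefficient per group and 12 residual degrees of freedom). In each of 12 contrasts the Benjamini-Hochberg adjustment was made over all 17030 genes tested, with a threshold of 0.05. Intervals of 95% use the t quantile of each gene's total degrees of freedom. Totals of 19819401 to 33352163 counts set the counting precision, and the lowest member, FOSB, had at least 29 counts in every library. Groups came from the genotype and treatment labels. Gene coordinates, exon lengths and overlaps were taken from GENCODE 29 and promoters from RefSeq. The test was tried on simulated data before use.

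The 10 members and the lists of related genes and cell markers were chosen with earlier results of these data known. Every member is named. From 4 lists the named genes are up to 4 per contrast with the largest absolute log2 fold change among those called with at least 1 CPM in the higher group. ATF7, PLAU and MAP2K1 are given further values in contrasts where this rule did not choose them. The alternatives were DESeq2 1.42.0, its size factors in edgeR, library size alone, no filter, a mean of at least 1 CPM, a replicate block, the groups of a contrast alone, and leaving out each library. Some genes that this rule took are not reported here.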

Additional observations from a re-analysis of the deposited data

Results flagged for a closer look

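The 24 h response to collagen differed between genotypes, by the interaction test of edgeR, for 3 of the 10 genes. The difference of log2 fold changes, targeted against control, was -0.57 for JUN (adjusted p = 0.00127), -0.42 for FOSL1 (adjusted p = 0.0313) and -0.35 for MAFF (adjusted p = 0.0186). JUN was higher in 3 of 3 targeted than control libraries in droplets and lower in 3 of 3 at 24 h. MAFF was higher in 3 of 3 in droplets and overlapped at 24 h, and FOSL1 overlapped in droplets and was lower in 3 of 3 at 24 h. Cell populations, MMP14 loss and any clonal difference cannot be told apart here.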

How the results depend on the processing

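Of 120 fold changes (10 genes in 12 contrasts) 59 were called, and 53 of these were called under every alternative. Signs changed for 15, none of them called, at values no larger than 0.0794 in size. The number of members called in droplets between genotypes moved from 3 to 5 with no filter and 5 with DESeq2, and that at 24 h from 2 to 4 with no filter. The interaction at 24 h moved from 3 to 6 with no filter and 5 with DESeq2. At 48 h it moved from 0 to 3 with no filter, 2 with DESeq2 and 1 with the groups alone, and for 48 h against 24 h from 0 to 2 with no filter. Among all genes, higher and lower, DESeq2 called 721 and 1030 of 13957 in the 24 h interaction and 1314 and 1593 of 17833 in droplets between genotypes. With no filter there were 1501 and 1668 of 33364 in droplets between genotypes and 2437 and 2544 at 24 h. The cause of these moves was not tested. Leaving out each library in turn gave 1 to 3 members in droplets, 2 to 3 at 24 h, 1 to 2 at 48 h and 1 to 3 in the 24 h interaction. It gave 8 to 9 for targeted 24 h against droplets and 9, 10, 7, 10, 4, 0 and 0 for the others.

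Uncalled values with another sign were as follows. With library size alone, FOSL2 in control at 24 h was -0.0113, and targeted against control gave JUND 0.0116 in droplets, FOSL2 0.0115, JUND 0.0459 and MAFF 0.01 at 24 h, JUN 0.0445 at 48 h and JUND 0.0343 in the 24 h interaction. With a mean of at least 1 CPM, JUND at 24 h was 0.012, JUN at 48 h 0.00659 and the JUND interaction 0.0141. With the groups alone, JUN at 48 h was 0.000448 and the JUND interaction 0.00754. The FOS interaction of 48 h against 24 h was -0.00149 with DESeq2 size factors, -0.00908 with no filter and -0.000806 with DESeq2. Without single libraries, values ran from -0.0418 to 0.0668 for FOSL2 in control at 24 h; in droplets between genotypes from -0.013 to 0.13 for FOSL1, -0.0849 to 0.0787 for JUND and -0.122 to 0.00634 for BATF3. At 24 h they ran from -0.0965 to 0.0161 for FOSL2, -0.00964 to 0.238 for JUNB, -0.0873 to 0.0638 for JUND and -0.0801 to 0.0153 for MAFF, and at 48 h from -0.0844 to 0.0303 for JUN. In the interactions they ran from -0.0857 to 0.078 for JUND and -0.14 to 0.0286 for BATF3 (24 h), -0.135 to 0.00471 for FOSL2 (48 h), and -0.0794 to 0.0844 for FOS, -0.0451 to 0.15 for ATF3 and -0.151 to 0.0352 for BATF3 (48 h against 24 h).

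Library size alone also moved the split of all genes called between genotypes, from 2328 higher and 2682 lower to 3084 and 1901 at 24 h, and from 2458 and 2571 to 3144 and 1745 at 48 h, and the interactions from 565 and 697 to 733 and 509 (24 h) and from 682 and 474 to 862 and 304 (48 h), and targeted 48 h against 24 h from 353 and 295 to 287 and 362. With no filter the counts of all genes, higher and lower, moved to 943 and 1103 in the 24 h interaction, from 682 and 474 to 1106 and 1004 in the 48 h interaction (990 and 848 with the block, 833 and 925 with DESeq2), from 353 and 295 to 480 and 621 for targeted 48 h against 24 h, and from 0 to 160 and 80 in the interaction of 48 h against 24 h (3 and 2 with DESeq2). Without single libraries they ran from 215 and 199 to 823 and 1130 (24 h interaction), from 191 and 125 to 987 and 990 (48 h interaction), down to 164 and 160 for targeted and 604 and 745 for control 48 h against 24 h, and down to 909 and 1050 in droplets between genotypes. The labels give no shared origin for same-numbered libraries, and the criterion for pairing, every same-number correlation above 0.1, was not met: 19 of 45 were (-0.257 to 0.429). Their mean was 0.0715, and that for different numbers was -0.0357. The values were centred on the mean of each group, which ties the second mean to the first, so the contrast of the 2 adds no support. Of 18 libraries, 11 correlated best with their own number, at most a hint of pairing from the data and not from the design. The replicate block moved targeted 48 h against 24 h from 4 to 5 members (JUND, -0.318, adjusted p = 0.0142 by edgeR), left the other 11 counts as they were, and gave JUND 6.24e-07 at 24 h and 0.0036 in its interaction, and FOS -0.00463 in the interaction of 48 h against 24 h.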
